A study of Mus musculus with 9 samples.

Results

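Immediate early genes were examined in the gastrocnemius, a calf muscle. They were listed by name, though with earlier results of these data known. The set held Fos, Fosb, Jun, Junb, Atf3, Egr1, Egr2, Ier2, Nr4a1 and Nr4a3. Every probe set annotated to 1 of these symbols was taken, which gave 14 probe sets for 10 genes, of 45037 probe sets and 18193 genes in the series. Jun and Egr2 had 2 probe sets each and Nr4a3 had 3. Where a gene had several, the probe set with the highest mean represented it in tests across genes.

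The study profiled outbred CD-1 mice, described as young adults, 14 days after surgery. The sham group had a mock operation and a placebo pellet, and the castration group lost the testes and carried placebo. The testosterone group was also castrated but carried 2.5 mg testosterone in a pellet made for release over 60 days. All 3 groups thus had surgery and a pellet under the skin, and no genetic modification is named. Each group had 3 arrays, and each array was hybridised with RNA pooled from 3 animals, so every SD below is a spread between pools. At the end, mice that had been fed were anaesthetised, bled from the carotid artery and decapitated, and the muscle was kept in RNAlater. The labels give no order of dissection, time of day or interval from anaesthesia to preservation. Effects of handling and of muscle activity at sampling were therefore not tested, and where such effects differed between groups they cannot be told apart from treatment.

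Immediate early genes are transcribed within minutes of a stimulus because the factors that switch them on, such as CREB, serum response factor and its ternary complex partners, are already present in the cell. Their transcripts are short-lived, and most encode transcription factors that act on a later wave of genes. In skeletal muscle they are known to respond to contraction, stretch, injury and stress hormones.

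Promoter sequences are shown for Fos, Atf3 and Junb, the members with an unadjusted p under 0.05 in a comparison with testosterone, a choice made after their values were seen. Egr2 is added because, among the 8 members with a window, it alone held a CArG box, the serum response factor site. No window was available for Egr1 and Ier2. The Egr2 window shown is 1 of several, and another of them held none of the motifs searched. Each run is the 250 bases upstream of a RefSeq transcript start in GRCm38.p6, written 5′ to 3′ on the gene's strand. Capitals mark a CRE core, a TATA element or a CArG box found by search on both strands. The Fos window is chr12:85473640-85473889 on the plus strand, the Atf3 window chr1:191183334-191183583 on the minus strand, the Junb window chr8:84978749-84978998 on the minus strand, and the Egr2 window chr10:67537619-67537868 on the plus strand.
Fos: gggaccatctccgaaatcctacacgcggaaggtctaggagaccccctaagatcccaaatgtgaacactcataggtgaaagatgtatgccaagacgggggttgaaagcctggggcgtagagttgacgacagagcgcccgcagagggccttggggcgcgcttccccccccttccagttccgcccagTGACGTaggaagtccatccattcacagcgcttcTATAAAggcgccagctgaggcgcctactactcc
Atf3: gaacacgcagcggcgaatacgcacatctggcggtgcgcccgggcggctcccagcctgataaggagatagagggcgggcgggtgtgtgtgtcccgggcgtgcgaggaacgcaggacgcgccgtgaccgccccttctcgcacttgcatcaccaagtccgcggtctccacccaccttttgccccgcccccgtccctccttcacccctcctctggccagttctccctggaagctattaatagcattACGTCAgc
Junb: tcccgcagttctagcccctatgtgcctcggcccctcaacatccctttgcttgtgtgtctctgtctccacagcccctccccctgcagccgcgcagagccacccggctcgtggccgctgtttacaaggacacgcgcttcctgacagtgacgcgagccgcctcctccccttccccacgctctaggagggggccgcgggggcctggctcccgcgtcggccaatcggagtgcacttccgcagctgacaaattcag
Egr2: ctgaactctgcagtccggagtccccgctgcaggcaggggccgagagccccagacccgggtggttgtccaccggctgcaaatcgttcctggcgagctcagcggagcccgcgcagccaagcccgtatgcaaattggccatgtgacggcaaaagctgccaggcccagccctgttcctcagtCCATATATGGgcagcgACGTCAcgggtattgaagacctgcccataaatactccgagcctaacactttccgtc
The CRE core TGACGT, a core of the cAMP response element, lay at positions -66 to -61 from the Fos start, with TATAAA at -33 to -28. Atf3 held it on the other strand, as ACGTCA, at -8 to -3. The Egr2 window had its CArG box at -72 to -63 and ACGTCA at -56 to -51, and the Junb window held none of the motifs searched.

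Windows were found for 8 of the 10 genes, not for Egr1 and Ier2, and only Egr2 had more than 1. The CRE core occurred in the windows of 4 of these 8 genes (Atf3, Egr2, Fos and Nr4a3), beside 6.47% of all 32851 promoter windows of the same length. Here and below a member counts if any of its windows held the motif, whereas the percentage is over single windows. The units thus differ, and Egr2, with several partly overlapping windows, had more chances of a match. The AP-1 site TGANTCA, bound by Fos and Jun dimers, was in 0 of 8, beside 6.75% of all windows. The EGR site GCGNGGGCG was in 2 (Fosb and Nr4a1), beside 4.70%, and the CArG box in 1, beside 1.47%. TATAAA was in 1 (Fos), beside 12.4%. The androgen response element, AGAACA and TGTTCT with 3 bases between them, was in 0 of 8, beside 0.00913% of all windows. Overlaps between motifs were not removed. These matches describe letters only.

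Expression is given as log2 values per probe set, with a median of 3.19 over all probe sets and arrays. Levels on different probe sets cannot be compared as amounts of RNA, so groups are compared within a probe set. Bright and dim below refer only to the signal of a probe set against that median. The arrays sham 2 and testosterone 2 stood apart: their mean correlations with the other arrays were 0.972 and 0.981, against 0.989 to 0.991 for the remaining 7. All 12 muscle fibre markers were bright, from 11.99 (Des) to 14.21 (Acta1), and their mean deviation per array stayed between -0.03 and 0.02. Adipocyte markers deviated by 1.10 on sham 2 and 1.26 on testosterone 2, and lymphocyte markers by 0.39 and 1.03. In bulk tissue, fewer cells of a type and less RNA per cell cannot be told apart.

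**Figure D1:**
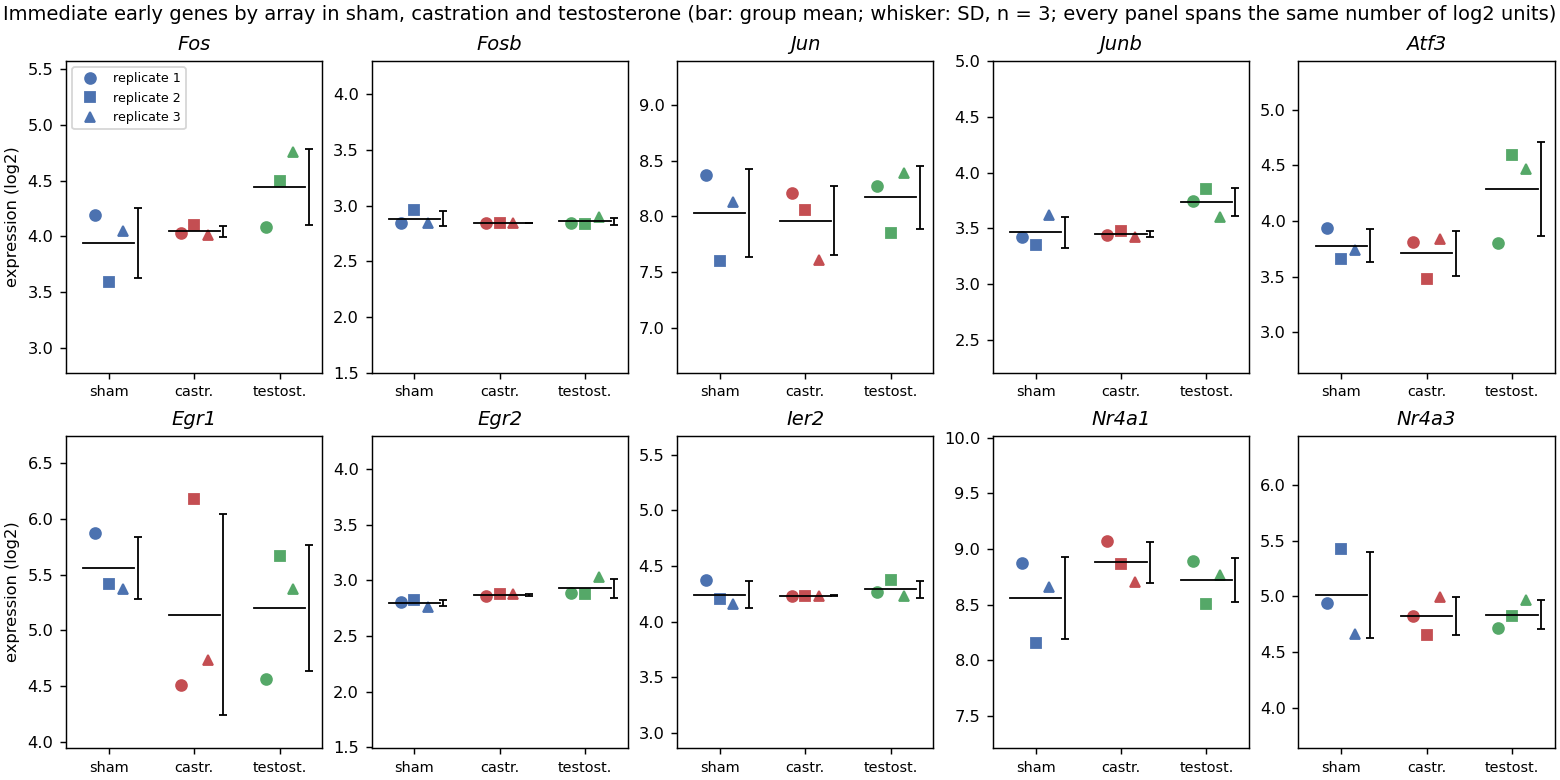
Expression (log2, vertical axis) of the 10 immediate early genes on each array, by group, with circles, squares and triangles for replicates 1, 2 and 3, a bar for the group mean and a whisker for the SD of 3 arrays. Fos and Atf3 are highest on testosterone 2 and testosterone 3, Junb is higher on all testosterone than on all castration arrays, and Egr1 spreads widest within castration.

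Fos is the partner that forms the AP-1 transcription factor with Jun proteins. Its probe set 1423100_at read 4.19, 3.59 and 4.04 on the sham arrays, 4.03, 4.10 and 4.01 on the castration arrays and 4.08, 4.49 and 4.76 on the testosterone arrays, in the order of replicates 1 to 3. Testosterone 2 and testosterone 3 were above all other arrays, testosterone 1 lay among the castration arrays, and sham 2 was the lowest. The group means were 3.94 ± 0.31 (SD, n = 3) in sham, 4.05 ± 0.05 in castration and 4.44 ± 0.34 in testosterone. The difference of testosterone from sham was 0.50 (SE 0.19, 95% interval 0.06 to 0.94), a 1.42-fold higher mean, and that from castration was 0.40 (SE 0.19, -0.04 to 0.84). Neither passed the limma test after Benjamini-Hochberg adjustment over all genes (adjusted p = 0.7797 and 0.9998), and castration differed from sham by 0.11 (SE 0.19).

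Atf3 is a stress-induced factor of the ATF and CREB family that can pair with Jun proteins. Its probe set 1449363_at read 3.94, 3.66 and 3.74 in sham, 3.81, 3.48 and 3.84 in castration and 3.81, 4.60 and 4.47 in testosterone. As for Fos, testosterone 2 and testosterone 3 were the 2 highest arrays while testosterone 1 lay within the range of the other groups. The testosterone mean of 4.29 ± 0.42 (SD, n = 3) was 1.49-fold above castration (difference 0.58, SE 0.20, 95% interval 0.11 to 1.04) and 1.43-fold above sham (0.51, SE 0.20, 0.05 to 0.98). The unadjusted limma p was 0.0204 and 0.0348, and the adjusted p was 0.9998 and 0.7797. Castration minus sham was -0.07 (SE 0.20).

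Junb encodes a Jun protein known to help maintain the size of muscle fibres. Its probe set 1415899_at read 3.42, 3.35 and 3.62 in sham, 3.44, 3.48 and 3.42 in castration and 3.75, 3.85 and 3.60 in testosterone. All testosterone arrays lay above all castration arrays, whereas sham 3 lay just above testosterone 3. Testosterone minus castration was 0.29 (SE 0.10, 95% interval 0.07 to 0.51), 1.22-fold, and testosterone minus sham was 0.27 (SE 0.10, 0.05 to 0.49), with castration minus sham at -0.02. Unadjusted limma p-values were 0.0169 and 0.0228, and the adjusted p-values of 0.9998 and 0.7797 did not pass.

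Jun, the partner in most AP-1 dimers, was bright and variable. Its probe set 1417409_at read 8.37, 7.60 and 8.13 in sham, 8.21, 8.06 and 7.61 in castration and 8.27, 7.85 and 8.39 in testosterone. The 3 groups overlapped fully, with differences of -0.07 (SE 0.24) for castration minus sham, 0.21 for testosterone minus castration and 0.14 for testosterone minus sham. The other probe set, 1448694_at, read 5.52 on sham 2 and 6.22 to 7.23 on the remaining 8 arrays. Its castration minus sham difference, 0.23 (SE 0.37), had the opposite sign to the first, and its testosterone minus sham difference was 0.53 (SE 0.37).

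Fosb, another Fos protein, was below the median of all values. Its probe set 1422134_at read 2.84 on all castration arrays, 2.84 to 2.96 in sham and 2.84 to 2.90 in testosterone. The highest array was sham 2, and the group differences were -0.04 (castration minus sham), 0.02 (testosterone minus castration) and -0.03 (testosterone minus sham).

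Egr1 is a zinc finger factor that responds to growth factors and stretch. Its probe set 1417065_at read 5.88, 5.42 and 5.37 in sham, 4.51, 6.18 and 4.73 in castration and 4.57, 5.66 and 5.37 in testosterone. Castration held both the highest array and the lowest, 3.17-fold apart, and the testosterone pools differed by up to 2.14-fold against 1.42-fold in sham. Castration minus sham was -0.42 (SE 0.44, 95% interval -1.42 to 0.59), testosterone minus castration 0.06 (SE 0.44) and testosterone minus sham -0.36 (SE 0.44). These intervals are wide enough to hold changes of more than 1 log2 unit, and none passed the adjusted limma test. Castration minus sham ran from -0.10 without castration 1 to -0.94 without castration 2 (limma adjusted p = 0.999) and was -0.84 with array weights (adjusted p = 0.254), with an unadjusted p under 0.05 in the latter 2 settings. The weights of sham 1, 2 and 3 were 4.61, 0.164 and 0.644, so the weighted sham mean rested mostly on sham 1, the highest sham array.

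Egr2, a related zinc finger factor, was dim. The probe set used, 1427683_at, read 2.80, 2.82 and 2.76 in sham, 2.86, 2.88 and 2.88 in castration and 2.89, 2.88 and 3.03 in testosterone. All castration and all testosterone arrays lay above all sham arrays, by group differences of 0.07 (SE 0.07) and 0.13 (SE 0.07). The adjusted limma p was 0.849 and 0.7797, and the other probe set, 1427682_a_at, gave the opposite signs at -0.07 and -0.04.

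Ier2, a nuclear regulator of transcription induced by growth factors, varied least between castration pools among the brighter members. Its probe set 1416442_at read 4.38, 4.201 and 4.16 in sham, 4.24, 4.23 and 4.24 in castration and 4.26, 4.38 and 4.23 in testosterone. The groups overlapped, and differences lay between -0.01 and 0.06.

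The orphan nuclear receptors Nr4a1 and Nr4a3 are induced in muscle by exercise and adrenergic signals. Nr4a1, probe set 1416505_at, read 8.87, 8.16 and 8.66 in sham, 9.07, 8.87 and 8.70 in castration and 8.89, 8.50 and 8.77 in testosterone. Sham 2 was the lowest array, and the groups overlapped. Castration minus sham was 0.32 (SE 0.19, 95% interval -0.12 to 0.75; limma adjusted p = 0.838) and testosterone minus castration -0.16 (SE 0.19). The former was 0.47 without sham 1 (limma adjusted p = 0.71, unadjusted p under 0.05), 0.11 without sham 2 and 0.0959 with array weights.

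Nr4a3 gave different pictures by probe set. The one used, 1421080_at, read 4.94, 5.43 and 4.66 in sham, 4.82, 4.65 and 4.99 in castration and 4.71, 4.82 and 4.97 in testosterone, with sham 2 the highest. The probe set 1438796_at read 3.53, 3.64 and 3.86 in sham, 3.88, 4.07 and 4.01 in castration and 3.65, 3.77 and 3.54 in testosterone. There all castration arrays were above all others, by 0.31 over sham (SE 0.10, limma adjusted p = 0.883 over all probe sets). Testosterone minus castration was -0.33 (SE 0.10, limma adjusted p = 0.9999). The probe set 1421079_at stayed between 2.71 and 2.96. The probe set 1438796_at is singled out after its values were seen. The 3 probe sets did not share a direction in castration minus sham or in testosterone minus castration. In testosterone minus sham all 3 were lower, by -0.17 (1421080_at), -0.05 (1421079_at) and -0.02 (1438796_at).

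**Figure D2:**
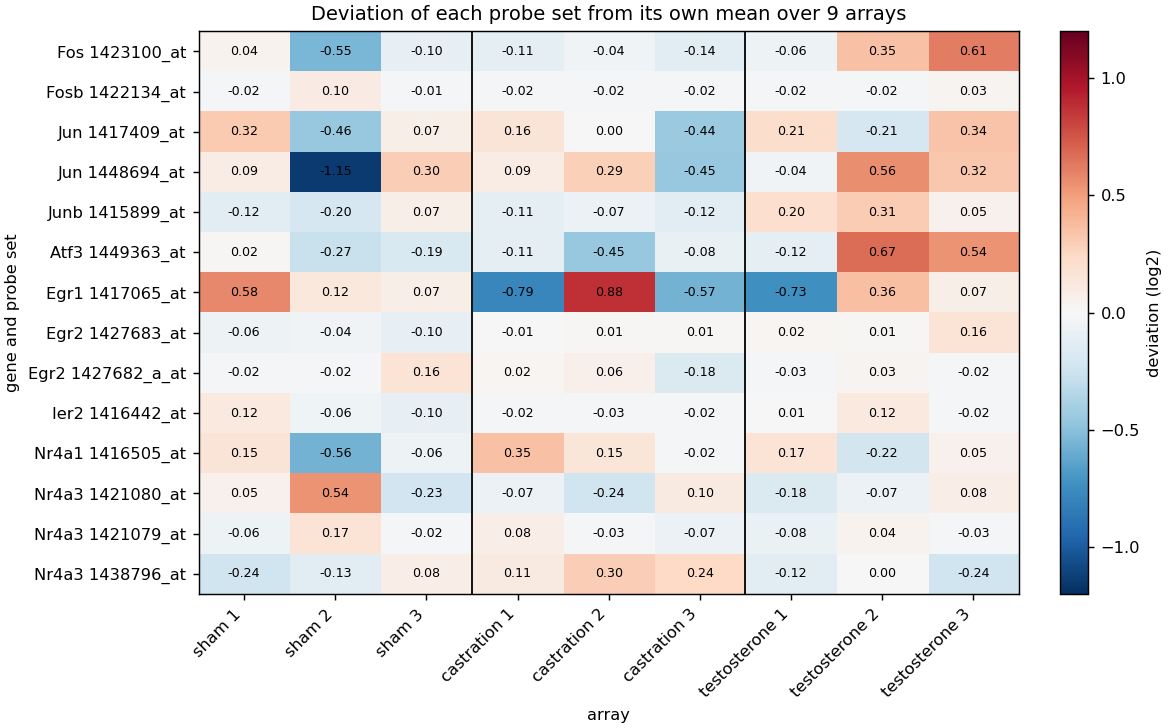
Deviation (log2, colour and printed value) of each of the 14 probe sets (vertical axis) from its own mean on each of the 9 arrays (horizontal axis), with lines between groups. Testosterone 2 and testosterone 3 are high for Fos and Atf3, sham 2 is low for Fos, both Jun probe sets and Nr4a1, and the castration arrays are high for Nr4a3 1438796_at.

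The first comparison asked what loss of testicular hormone did. At an adjusted p under 0.05, 0 of 10 members were called in limma, beside a background of 0% of all 18193 genes. An unadjusted p under 0.05 was also reached by 0 of 10, beside 4.72% (859 genes), and by 1 member under 4 alternatives: Egr1 with array weights and without castration 2, Nr4a1 without sham 1, and Nr4a3 through its probe set 1438796_at when all probe sets were tested. In 3 members the mean was higher after castration, beside 52.9% of all genes, and in 7 lower, though Junb turned under repeated quantile normalisation and, with Ier2, under median centring of the arrays. Fos, Jun, Atf3 and Nr4a3 turned under other alternatives. Their median difference was -0.03, and that of all genes was 0.01. Over the alternatives the members' median ran from -0.10 to 0.03. Egr2 alone had groups that did not overlap, 1 of 10, beside 8.89% of all genes.

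The second comparison, testosterone against castration, asked what replacement did. It called 0 of 10 members in limma, beside 0% of all genes. Junb and Atf3 were higher at an unadjusted p under 0.05, 2 of 10, beside 3.48% of all genes (633), or 1.64% for higher genes only. The mean was higher with testosterone in 9 of 10 members, the exception being Nr4a1, beside 48.3% of all genes. Nr4a3 turned to -0.111 with the mean of its probe sets and to -0.000592 under repeated quantile normalisation. With single arrays left out, Egr1 ran down to -0.254 and Fosb to -0.00296. Their median was 0.06, from 0.05 to 0.16 over the alternatives, and that of all genes -0.01. The count at an unadjusted p under 0.05 ran from 0, without testosterone 2, to 3. Junb alone did not overlap between groups, 1 of 10, beside 9.01%.

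The third comparison, testosterone against sham, set replacement against intact animals. Again 0 of 10 members were called in limma, beside 0%. Fos, Junb and Atf3 were higher at an unadjusted p under 0.05, 3 of 10, beside 4.35% of all genes (791), or 2.64% for higher genes only. In 7 members the mean was higher and in 3 lower, beside 52.1% of all genes higher, though Ier2 turned under repeated quantile normalisation and Fosb under median centring. Jun, Nr4a1 and Nr4a3 turned under other alternatives. The median was 0.14 against 0.01 for all genes. It was 0.07 without sham 2 and testosterone 2 and ran from -0.015 to 0.19 over the alternatives. The count at an unadjusted p under 0.05 ran from 0, among others without sham 2 or without testosterone 2, to 4. Egr2 did not overlap, 1 of 10, beside 6.47%. The 3 comparisons share arrays with each other, so their directions are not independent. The limma F test over the 3 groups called 0 of 18193 genes (662 at an unadjusted p under 0.05). Junb, Atf3 and Fos had an adjusted p of 0.892 in it.

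**Figure D3:**
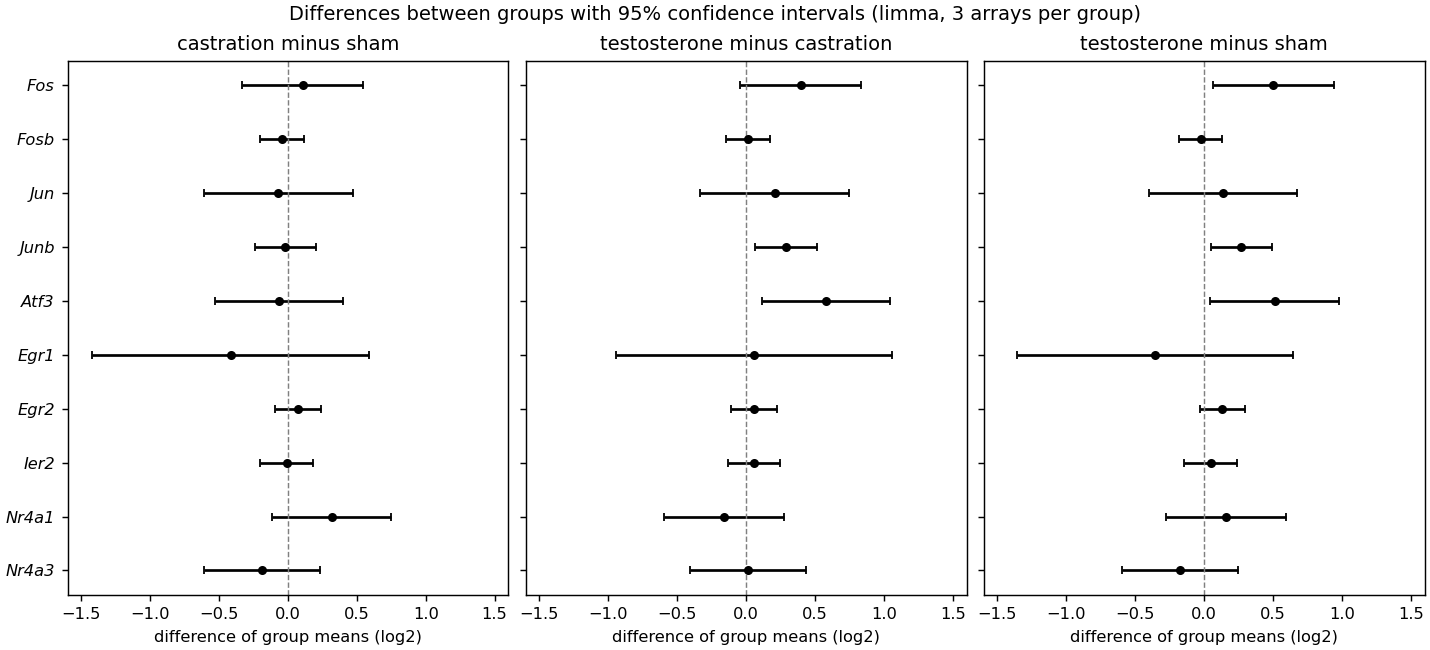
Difference of group means (log2, horizontal axis) for each of the 10 genes in the 3 comparisons, with 95% confidence intervals from limma over 3 arrays per group. The intervals of Junb and Atf3 lie above 0 in testosterone minus castration, those of Fos, Junb and Atf3 in testosterone minus sham, and none is past the adjusted threshold.

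Whether these 3 genes had an unadjusted p under 0.05 depended on single pools. Without testosterone 2, Atf3 differed from castration by 0.43 (limma adjusted p = 1) and Junb by 0.23 (adjusted p = 1), both with an unadjusted p above 0.05. Without testosterone 1, Atf3 differed from castration by 0.82 (limma adjusted p = 0.332). For Fos, testosterone minus sham was 0.33 without sham 2 (limma adjusted p = 0.995) and 0.35 without testosterone 3 (adjusted p = 0.761), again with an unadjusted p above 0.05. Leaving out sham 2 and testosterone 2 together gave 0.30 for Fos, 0.15 for Junb and 0.30 for Atf3 in testosterone minus sham, with a limma adjusted p of 0.998 for each. Against castration, Junb was then 0.23 higher (limma adjusted p = 0.812).

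Marker levels of other cells moved with these comparisons. Fibroblast markers, 10 genes all above the median of all values, deviated by -0.49 to 0.27 in sham, 0.14 to 0.37 in castration and -0.30 to -0.09 in testosterone, so testosterone and castration did not overlap. Against castration 7 of the 10 had a lower mean with testosterone, with a median of -0.35, and Pdgfra, Dpt and Pi16 were higher. Of the 7, 5 had an unadjusted p under 0.05, beside 3.48% of all genes in either direction, and 0 passed the adjusted limma test. With array weights, without sham 2, and without sham 2 and testosterone 2, 1 fibroblast marker passed. In the last setting the median of the fibroblast list was -0.49. Of 11 endothelial markers 10 were lower with testosterone against castration (median -0.21), with 1 higher and 1 lower at an unadjusted p under 0.05. Satellite cell markers, 3 of 6 below the median of all values, deviated by 0.09 to 0.18 in castration, above sham (-0.17 to -0.06) and testosterone (-0.09 to -0.01). The castration deviations rested mostly on Myog. It differed by 1.21 in castration minus sham (limma adjusted p = 0.2711) and by -0.93 in testosterone minus castration (limma adjusted p = 0.3925). The medians of the satellite list were 0.06 and -0.09. Testosterone 2 had the highest adipocyte (1.26), lymphocyte (1.03) and macrophage (0.37) deviations of all arrays, and the highest Junb and Atf3. Testosterone 3, with the highest Fos and the second highest Atf3, had -0.65, -0.24 and -0.12 for the same marker lists. By group, the adipocyte deviation ran from -0.34 to 1.10 in sham, -0.70 to -0.67 in castration and -0.65 to 1.26 in testosterone, over 6 measured markers of which Lep was below the median of all values. The lymphocyte deviation ran from -0.25 to 0.39, -0.22 to -0.17 and -0.24 to 1.03, over 8 markers with 2 below that median. Of the neutrophil markers 5 of 7, and of the erythroid markers 3 of 4, were below the median of all values. The part of other cells in the group differences and in the values of testosterone 2 was not tested.

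The spread between pools of the same treatment is given as a description, with no test. The residual SD of Egr1 was 0.64, higher than that of 99.0% of all genes and 98.6% of the 12080 genes above the median of all values. Jun had 0.33 (87.4% of all genes), Atf3 0.28 (81.3%), Fos 0.27 (78.9%), Nr4a1 0.26 (78.0%) and Nr4a3 0.26 (76.9%). Junb (0.11), Ier2 (0.08), Egr2 (0.05) and Fosb (0.04) varied less, with 27.4% of all genes or fewer below them. The median over the members was 0.26, against 0.16 for all genes and 0.20 for the brighter ones. Among the members 1 of 10, Egr1, was in the highest 10% of genes, beside 10% of all genes, and 4 of 10 (Fos, Jun, Atf3 and Egr1) without sham 2 and testosterone 2.

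**Figure D4:**
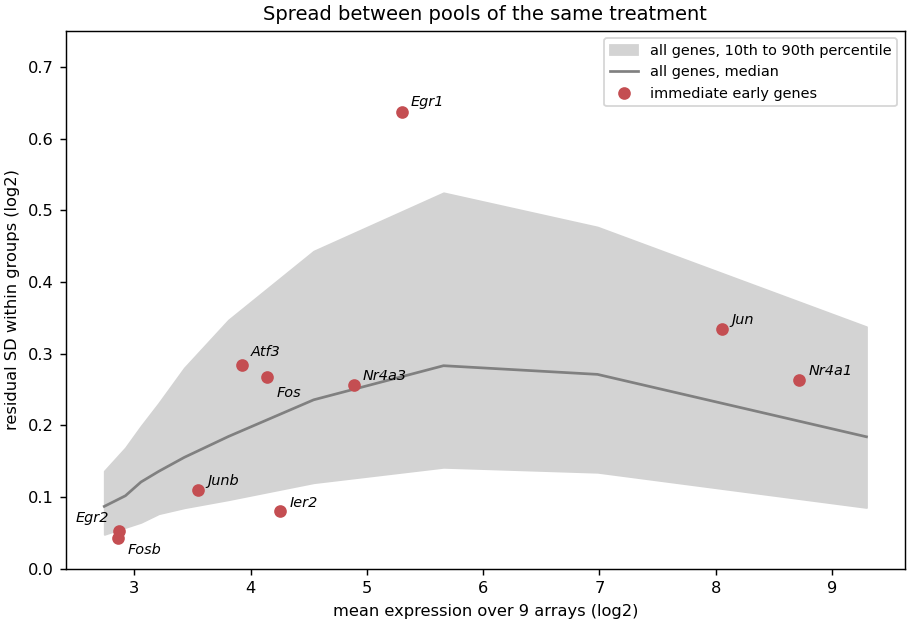
Residual SD within groups (log2, vertical axis) against mean expression over 9 arrays (log2, horizontal axis) for the 10 genes (points), with the median (line) and the 10th to 90th percentile (band) of all genes. Egr1 at 0.64 lies above the band, Ier2, at 0.08, and Fosb, at 0.04, below it, and Egr2, at 0.05, at its lower edge.

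The members were not high on the same arrays as a block. Sham 2 was the lowest array for Fos, Jun, Junb and Nr4a1 and the highest for Fosb and Nr4a3. Testosterone 3 was the highest for Fos, Jun and Egr2, testosterone 2 for Junb and Atf3, castration 1 for Nr4a1 and castration 2 for Egr1. Averaged over members as standardised deviations, testosterone 3 stood at 0.81, testosterone 2 at 0.47 and sham 1 at 0.26, and the other 6 arrays at -0.43 to -0.01. Of 45 pairs of members, 29 had a Pearson correlation above 0 over the 9 arrays, with a median of 0.09, and 0 passed the exact permutation test after Benjamini-Hochberg adjustment (3 at an unadjusted p under 0.05).

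**Figure D5:**
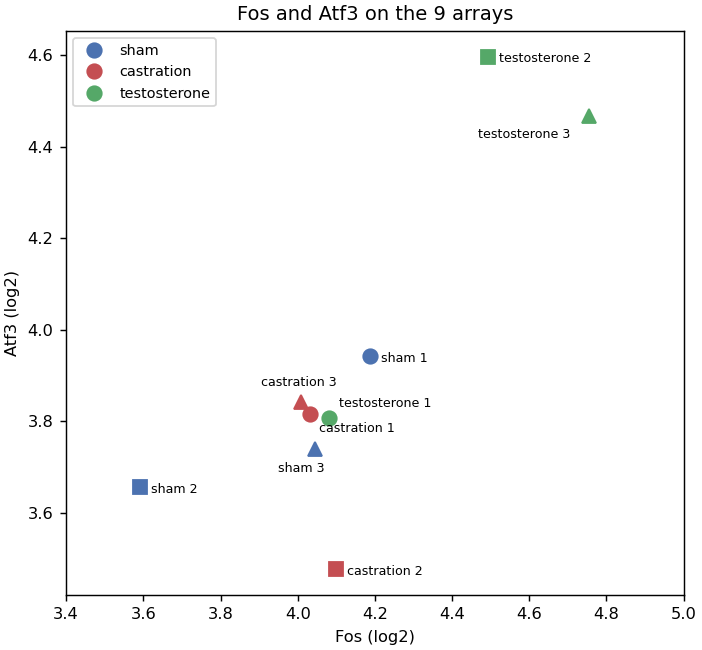
Atf3 (log2, vertical axis) against Fos (log2, horizontal axis), 1 point per array, coloured by group. Testosterone 2 and testosterone 3 lie apart at the upper right, and the other 7 arrays, testosterone 1 among them, form no line.

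Fos and Atf3 were both high on testosterone 2 and testosterone 3, which lay apart from the other arrays. Over all 9 arrays Pearson's r was 0.82 (exact permutation p = 0.00745, adjusted p = 0.335) and Spearman's rho 0.58 (exact permutation p = 0.108, adjusted p = 0.694). It was 0.87 without the 2 arrays farthest in Fos, sham 2 and testosterone 3, and 0.67 for deviations from group means. Over the 7 arrays other than testosterone 2 and testosterone 3, Pearson's r was 0.31 (exact permutation p = 0.447) and Spearman's rho 0.14 (exact permutation p = 0.783), and r was -0.75 without the 2 of them farthest in Fos, so the relation rests on the high testosterone arrays. Jun and Nr4a1 had r = 0.72 over 9 arrays (exact permutation p = 0.0248, adjusted p = 0.41), rho = 0.67 (p = 0.0589 by exact permutation, adjusted p = 0.643) and r = 0.58 without the 2 farthest arrays, sham 2 and castration 3. For Fosb and Nr4a3 r was 0.85 (exact permutation p = 0.0291, adjusted p = 0.41) and rho 0.38 (p = 0.325, adjusted p = 0.814), and r was -0.35 without sham 2 and testosterone 3, so that relation rests on those arrays. The genes outside the set whose profile over the 9 arrays was most like the members' mean were G6pc2 (r = 0.95), Nlgn1 (0.94), Tmem238l (0.92), Sox13 (0.89) and Slc15a1 (0.89), each a measure of likeness over arrays that share normalisation. These genes were picked as the best correlated in the series over only 9 arrays, so their r is high by selection. Their values stayed between 2.60 and 4.19 on all arrays. G6pc2, Nlgn1 and Slc15a1 were below the median of all values on every array, and Tmem238l on all but testosterone 3.

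Genes around this response were read from 7 lists. Over the lists, 0 members passed the adjusted limma test in each comparison, and the counts at an unadjusted p under 0.05 are given beside each. Of all genes, 52.9% were higher after castration, 48.3% with testosterone against castration and 52.1% against sham. At an unadjusted p under 0.05 the shares of all genes were 4.72%, 3.48% and 4.35% in that order. For higher genes only they were 1.64% against castration and 2.64% against sham. The gene tested by name from each list is the one with the smallest p over the 3 comparisons. Npas4, Arc and Il6 are named besides, as low readings, after their values were seen. Ppargc1a, Otud1 and Sik1 are named, also after their values were seen, as contraction and exercise genes at an unadjusted p under 0.05 against sham.

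The 13 AP-1 partners are further proteins that pair within AP-1 or with ATF factors. The mean was higher in 6 after castration (median -0.02), in 11 with testosterone against castration (0.08) and in 9 against sham (0.13), with 0 at an unadjusted p under 0.05 in each. Without sham 2 and testosterone 2 these medians were 0.01, 0.04 and 0.04. Jdp2, a dimer partner that represses AP-1 targets, read 4.13 in sham, 4.25 in castration and 4.45 in testosterone, a difference of 0.32 from sham (SE 0.15, limma adjusted p = 0.7797), with overlapping arrays.

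Of 41 other immediate early genes, 24 had a higher mean after castration (median 0.14, beside 0.01 for all genes; 3 higher at an unadjusted p under 0.05). With testosterone against castration 20 were higher (median -0.01), 6 higher and 1 lower at an unadjusted p under 0.05, and against sham 29 (median 0.18), 2 of them at that p. Without sham 2 and testosterone 2 these medians were 0.01, -0.008 and 0.04. Gadd45g, a stress and growth arrest gene, read 7.35, 7.28 and 6.91 in sham, 7.21, 6.39 and 6.79 in castration and 7.78, 7.81 and 7.80 in testosterone. All testosterone arrays lay above all others, with testosterone minus castration at 1.00 (SE 0.20, 95% interval 0.55 to 1.45; limma adjusted p = 0.319). Npas4 (2.69 to 2.91) and Arc (2.88 to 3.20), activity genes best known from neurons, were near or below the median of all values on every array.

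The 21 feedback brakes are phosphatases, repressors and RNA-decay factors that end the response. Of them 16 had a higher mean after castration (median 0.13), 11 with testosterone against castration (0.02) and 15 against sham (0.13). Without sham 2 and testosterone 2 these medians were 0.05, -0.00387 and 0.03. Unadjusted p-values under 0.05 were found for 2 higher after castration, 2 lower with testosterone against castration, and 2 higher and 1 lower against sham. Zfp36l1, which destabilises transcripts with AU-rich elements, read 6.72 in sham, 7.09 in castration and 7.18 in testosterone, and testosterone minus sham was 0.46 (SE 0.16, limma adjusted p = 0.7797) with no overlap of arrays.

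Of 28 measured upstream regulators, kinases and resident transcription factors that start the response, 21 had a higher mean after castration (median 0.08), 15 with testosterone against castration (0.03) and 22 against sham (0.14). At an unadjusted p under 0.05 the counts were 1 higher after castration, 1 higher and 1 lower against castration, and 1 higher and 1 lower against sham. Mef2d, an activity-dependent muscle factor, read 8.02 in sham, 7.87 in castration and 8.15 in testosterone, testosterone minus castration being 0.28 (SE 0.11, limma adjusted p = 0.9998). Of the 3 Mef2d probe sets, only this 1 was higher in that comparison, and 2 had the opposite sign. Without sham 2 and testosterone 2 the medians were -0.00319, 0.06 and 0.06 in that order.

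Of 24 contraction and exercise genes, 15, 16 and 13 had a higher mean in the 3 comparisons in the order above, with medians of 0.10, 0.06 and 0.06, which were 0.03, 0.0043 and -0.00238 without sham 2 and testosterone 2. The unadjusted p was under 0.05 for 1 higher and 1 lower, 3 higher and 1 lower, and 2 higher and 1 lower. Mss51, a mitochondrial muscle protein, read 10.98 to 11.03 on the castration arrays and 11.72 to 12.12 on all others. Castration minus sham was -0.97 (SE 0.11, limma adjusted p = 0.103), and it passed under 4 of 22 alternatives. In testosterone minus sham, Ppargc1a differed by 1.42 (SE 0.29, 2.67-fold), with the same sign in its 5 probe sets. Otud1 differed by 0.78 (SE 0.24) and Sik1 by -0.18 (SE 0.07), and the limma adjusted p was 0.7797 for each of these genes. Il6, which contracting muscle releases, stayed between 2.61 and 2.88 on all arrays, below the median of all values.

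Of 14 heat shock genes, which encode chaperones, 13 had a higher mean after castration (median 0.18), 3 with testosterone against castration (-0.05) and 11 against sham (0.08). Only 1 was higher at an unadjusted p under 0.05 after castration and 1 against sham. The list's mean deviation was -0.46 on sham 2 and -0.02 to 0.13 on the other 8 arrays, and without sham 2 and testosterone 2 the medians were 0.10, -0.05 and 0.02. Hsp90aa1 read 5.93 on sham 2, 6.92 and 6.93 on the other sham arrays and 7.06 to 7.76 on the rest. Testosterone minus sham was 0.81 (SE 0.28, limma adjusted p = 0.7797), 1.76-fold. Of the 5 Hsp90aa1 probe sets, 4 had this sign and 1 the opposite.

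Of 20 glucocorticoid response genes, targets of the stress hormone receptor, 13 had a higher mean after castration (median 0.07), 11 with testosterone against castration (0.05) and 19 against sham (0.18). At an unadjusted p under 0.05 there were 3 higher and 2 lower in each of the first 2 comparisons and 0 in the third. Without sham 2 and testosterone 2 these medians were 0.04, -0.02 and 0.05. Fkbp5, an immunophilin that androgens and glucocorticoids both induce, read 7.22 to 7.99 in sham, 6.30 to 6.58 in castration and 7.78 to 7.92 in testosterone. Testosterone minus castration was 1.46 (SE 0.18, 2.75-fold; limma adjusted p = 0.0610), and it passed under 7 of 22 alternatives. The widest difference among the 10 immediate early genes in the same comparison was 0.58, for Atf3.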

How the data were processed

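Total RNA from the gastrocnemius was measured on 9 Affymetrix arrays, 3 per group. The deposited log2 expression values come from RMA, which the authors ran per the submitters' processing notes (version unstated there). This method corrects background, quantile-normalises the arrays and summarises probes, so shifts common to a whole array are removed and dim probe sets vary little. Values were used as deposited. Of 45101 probe sets, 64 controls were left out. The platform annotation lists 34945 with 1 gene and 932 with several, and genes were named only from the former, with symbols updated by gene identifier (204 found no match and kept theirs). A gene was represented by its probe set with the highest mean, giving 18193 genes.

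Two-sided tests used lmFit and eBayes of limma 3.58.1 (R 4.3.3), fitted to the 9 arrays together with group and no other term, with Benjamini-Hochberg adjustment across 18193 genes, or 45037 probe sets for other probe sets of a member, at a threshold of 0.05. Alternatives changed the block, samples, probe set choice, dim-gene filter, normalisation, variance model or array weights, or left arrays out. The labels call the arrays biological replicates, so the tests weigh differences against the spread between pools of 3 animals. Array number limits the precision. A list's deviation on an array is the mean of its genes' differences from their own means over 9 arrays. Members, lists and alternatives were chosen with earlier results of these data known. All members were named with every probe set, and list genes by smallest p. The exceptions, named after their values were seen, were Npas4, Arc and Il6 for low readings, and Ppargc1a, Otud1 and Sik1. The likeness rule took the 5 genes best correlated with the members' mean standardised profile. On simulated data for castration minus sham over 18193 genes the fit recovered 39, 47, 50 and 50 of 50 genes changed by log2 1, 1.5, 2 and 3, with 6 false calls. Noise was drawn independently for each gene, so no simulated array stood apart as sham 2 and testosterone 2 did. Changes as small as those of the members, at most 0.58, were not simulated, so these counts do not give the sensitivity for the members. No pair of arrays shared more than 5.78% of identical values.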

Additional observations from a re-analysis of the deposited data

How the results depend on the processing

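No member passed an adjusted p of 0.05 under any of 22 alternatives in any comparison, and the smallest adjusted limma p of a member was 0.254 (Egr1, castration minus sham, array weights). Of 654 recomputed member differences, 615 kept their direction and 39 turned, in 14 of 30 differences, and the cause was not tested. An unadjusted p under 0.05 was kept under 21 of 22 alternatives by Junb and 18 by Atf3 in testosterone minus castration, and under 15 by Fos, 16 by Junb and 13 by Atf3 in testosterone minus sham.

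In castration minus sham, averaging a gene's probe sets gave Jun 0.0787 and Nr4a3 0.0291, repeated quantile normalisation gave Junb 0.00793, median centring gave Junb 0.0128 and Ier2 0.0204, array weights gave Fos -0.111, and leaving out sham 2 and testosterone 2 gave Fos -0.0691 and Nr4a3 0.0204. In testosterone minus castration, Nr4a3 was -0.111 with the mean of probe sets and -0.000592 with repeated quantile normalisation, and Egr1 was -0.172 without sham 2 and testosterone 2. In testosterone minus sham, Ier2 was -0.0261 with repeated quantile normalisation and Fosb 0.00861 with median centring. Array weights gave Fosb 0.0194, Jun -0.0560, Ier2 -0.0797 and Nr4a1 -0.0494, and leaving out sham 2 and testosterone 2 gave Fosb 0.0237, Ier2 -0.0185 and Nr4a3 0.0409.

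Leaving out each array in turn turned the sign of 13 differences. In castration minus sham the ranges were -0.133 to 0.0493 for Atf3, -0.0691 to 0.229 for Fos, -0.0552 to 0.0556 for Ier2, -0.288 to 0.103 for Jun, -0.0754 to 0.0585 for Junb and -0.362 to 0.0204 for Nr4a3. In testosterone minus castration they were -0.254 to 0.578 for Egr1, -0.00296 to 0.0267 for Fosb and -0.0722 to 0.0996 for Nr4a3. In testosterone minus sham they were -0.0464 to 0.0128 for Fosb, -0.0798 to 0.308 for Jun, -0.0455 to 0.313 for Nr4a1 and -0.349 to 0.0342 for Nr4a3.

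The number of members among the most variable 10% of genes was 2 with repeated quantile normalisation and 4 without sham 2 and testosterone 2, against 1. Deviations of same-numbered arrays from their group means correlated at -0.489 to 0.268 between groups. Differently numbered arrays were not compared, so a pairing by replicate number was not tested. With the replicate number as a block 0 members were called in each comparison, with smallest adjusted limma p-values of 0.869, 1 and 0.818. Over all genes, array weights called 174, 59 and 0 genes in castration minus sham, testosterone minus castration and testosterone minus sham, leaving out sham 2 and testosterone 2 called 18, 27 and 0, and leaving out sham 2 alone 7, 28 and 0, against 0 in each. The array weights ran from 0.164 (sham 2) to 4.61 (sham 1).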
